A study of Homo sapiens with 6 samples.

Results

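The collagen genes of human MCF10A cells were compared between a control line and a line with raised flotillins. They are the protein coding genes of the deposited table of read count means whose symbol is COL, a number, A and a number, without COL17A1, a hemidesmosome component. That rule gave 48 of 21582 protein coding entries, and 42 different symbols, since COL11A2 has 6 further copies on alternate assemblies of its region, all at 0 reads. By the kind of assembly they build, 17 entries are fibrillar, 6 belong to the basement membrane, 10 are FACIT collagens (fibril-associated collagens with interrupted helices) and 15 are others.

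MCF10A is an established, non-tumorigenic mammary epithelial cell line with basal features. The control line stably expresses the fluorescent protein mCherry from 1 retroviral vector selected with puromycin. The flotillin line stably co-expresses flotillin 1 with an HA tag and flotillin 2 fused to mCherry, from 2 retroviral vectors selected with puromycin and hygromycin. Each group is 1 stable line measured in 3 libraries of polyadenylated RNA, and both were grown with horse serum, insulin, EGF, hydrocortisone and cholera toxin. The level of the flotillins, the number of vectors and the second selection drug differ together and cannot be told apart. Whether the 3 libraries are independent cultures is not stated in the labels, and the p-values may reflect technical spread alone. In bulk RNA, fewer cells that make a transcript and less of it per cell cannot be told apart.

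A collagen is a trimer of chains with a long stretch of glycine-led triplets that wind into a triple helix. Fibrillar collagens such as types I, III and V form the ropes of connective tissue, type IV forms the sheet of the basement membrane under an epithelium, and FACIT collagens sit on the surface of fibrils. In the mammary gland, epithelial cells rest on a type IV network, while most fibrillar collagen is known to come from stromal fibroblasts.

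Levels below are normalized read counts, that is reads divided by the size factor of their library, unless FPKM (fragments scaled by transcript length and library depth) is named. Reads of single libraries were recovered from the deposited group means and came to between 17445130 and 18629354 per library in the genes recovered; libraries are numbered 1 to 3 in each group by falling size factor, with no tie to the numbers in the labels. The authors' group means of FLOT1 were 1474 (control) and 16771 (flotillin), and those of FLOT2 were 3727 and 41052. Library 3 stood apart in both lines: over 11305 genes with a mean of at least 100, its deviation from the group mean correlated at 0.51 between the lines, against 0.34 for library 1 and 0.19 for library 2. Results are therefore also given without library 3 of both lines, an alternative chosen after seeing the data. Of the 5 basal epithelial markers, 4 were called lower in the authors' deposited table: KRT14 (authors' means 1249 and 259), KRT17 (13306 and 693), TP63 (1765 and 25.6) and COL17A1 (31039 and 934). The fifth, KRT5, had means of 48381 and 67351 and was not called (authors' deposited table, adjusted p = 0.24). KRT14 overlapped between the lines, with 287 in control library 2 and 430 in flotillin library 2. It passed in the authors' FPKM table (q = 0.000804) but not in limma, the second test used below (adjusted p = 0.134). Of all genes tested in the authors' deposited table, 12% were called lower and 11.6% higher. Of 7 fibroblast markers 3 were called higher in the authors' deposited table, namely DCN (authors' means 4659 and 42467), LUM (11.6 and 58.3) and PDGFRB (24.4 and 74.4), and COL1A1 was called lower. The other 3 were not tested: THY1 was at 0 in both lines, and PDGFRA and COL3A1 were at 0 in control cells and at 3.02 and 0.343 in flotillin cells. The summed means of the 7 went from 4962 to 42691, of which DCN alone made up 4659 and 42467. Of 3 endothelial markers 2 were under 10 in both lines, and of 4 immune markers 3 were. The others were expressed in both lines: KDR had authors' means of 641 and 588, and CD68 of 753 and 1309. Neither was called in the authors' deposited table (adjusted p = 0.880 and 0.189). PECAM1, also on the endothelial list, was not found. The part of these markers in the collagen results was not tested.

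Many collagen entries were silent or nearly so. Of the 48 entries, 7 had no read in any library and 25 had a mean under 10 in both lines. The 6 further copies of COL11A2 are among both the 7 and the 25. A mean of at least 10 over both lines was held by 23 entries, which are 23 of the 42 different symbols. Among the quiet ones was COL1A2, the partner chain of COL1A1 in type I collagen, with 4, 7 and 3 reads in control libraries 1 to 3 and 3, 3 and 4 in flotillin libraries 1 to 3. COL3A1, a typical fibroblast collagen, had 1 read in all 6 libraries together. The other quiet genes were COL5A1, COL6A6, COL8A2, COL9A1, COL9A2, COL9A3, COL10A1, COL11A1, COL14A1, COL15A1, COL19A1, COL20A1, COL21A1, COL22A1, COL23A1, COL25A1 and COL29A1, with at most 12 reads in a library.

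The authors' deposited table gives an adjusted p to 29 of the 48 entries. Of these, 5 were higher and 6 lower in the flotillin line at an adjusted p under 0.05, that is 37.9%, where 23.6% of all 19733 genes tested were called in either direction (11.6% higher, 12% lower). Restricted to a mean of at least 100, 8 of 15 tested collagen genes were called (53.3%) and 30.1% of all genes. At an adjusted p under 0.01 the authors' deposited table calls 5 collagen genes higher and 4 lower, where 6.67% and 7.91% of all genes tested were. The median log2 fold change of the 29 was 0.01, with a range from -3.95 to 2.34, and that of all genes tested was -0.04. COL8A1, COL12A1, COL18A1, COL24A1 and COL28A1 rose, while COL1A1, COL2A1, COL4A5, COL4A6, COL13A1 and COL27A1 fell. In these 11 genes every flotillin library lay on 1 side of every control library; COL4A4 did so too, by 160.9 against 161.0 at the nearest libraries, and the other 11 of 23 genes overlapped. Over all 15839 genes with a mean of at least 10 the groups did not overlap in 45.1%.

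**Figure D1:**
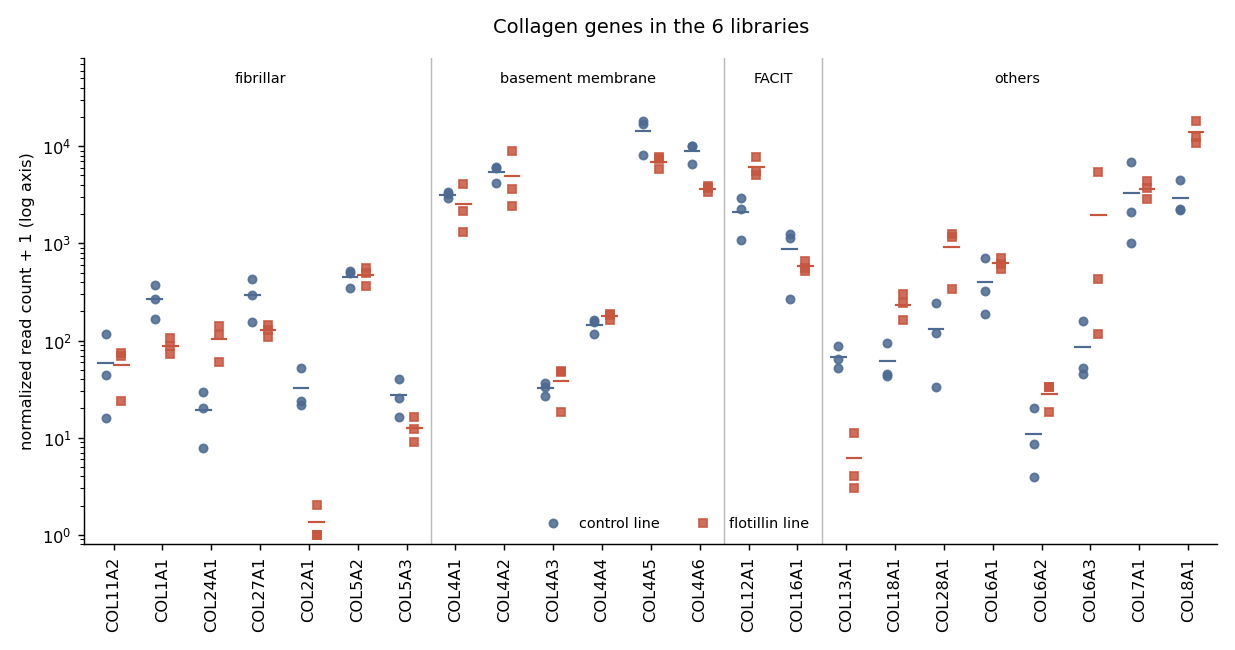
Normalized read counts plus 1 of the 23 collagen genes with a mean of at least 10, on a log axis, by class. Each point is 1 library (circles control, squares flotillin) and each short line a group mean; COL8A1 and COL12A1 lie higher in all 3 flotillin libraries, COL4A5, COL4A6 and COL13A1 lower, and COL6A3 has 1 flotillin library far above the other 2.

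Per length, the leading collagen transcript changed from COL4A5 to COL8A1. In the authors' deposited FPKM table the 48 entries summed to 485 FPKM in the control and 442 in the flotillin line. Basement membrane collagens made up 68.5% of that sum in control cells and 40.0% in flotillin cells, whereas COL8A1 alone went from 6.48% to 29.8%. The 5 highest in control cells were COL4A5 (174 FPKM), COL4A2 (71.3 FPKM), COL4A6 (64.9 FPKM), COL7A1 (49.8 FPKM) and COL8A1 (31.4 FPKM). In flotillin cells they were COL8A1 (132 FPKM), COL4A5 (76.7 FPKM), COL4A2 (59.1 FPKM), COL7A1 (43.6 FPKM) and COL12A1 (28.1 FPKM). Fibrillar collagens held 3.19% of the summed FPKM in control and 1.79% in flotillin cells. These are the authors' group values with no spread, so neighbours in either order cannot be separated by a test.

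**Figure D2:**
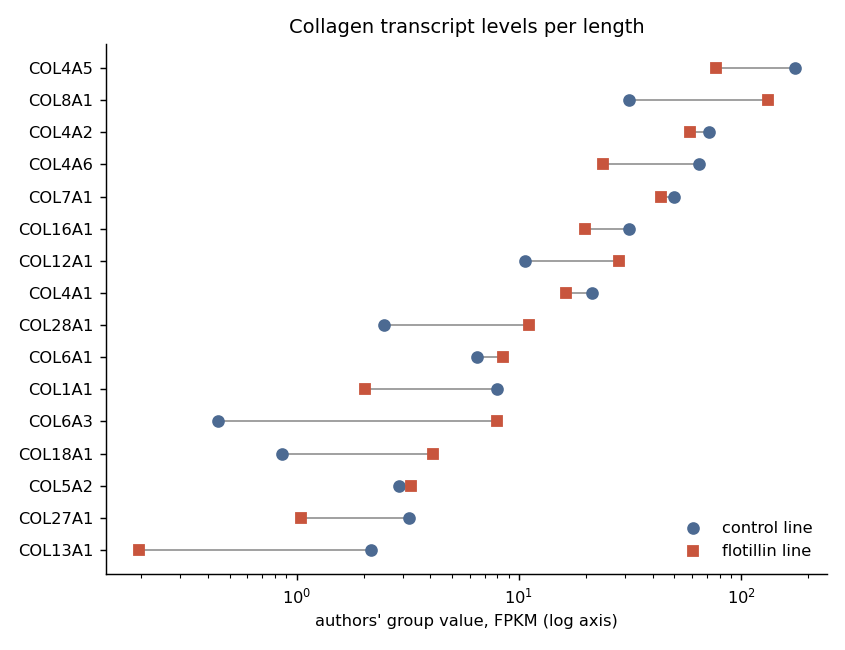
Authors' group values in FPKM on a log axis for the 16 collagen genes with the highest level in either line, circles for control and squares for flotillin. COL4A5 leads in control cells at 174 FPKM and COL8A1 in flotillin cells at 132 FPKM.

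The type IV genes lie in head-to-head pairs whose starts face each other across a short stretch of DNA, and each pair is described together. Type IV chains assemble as trimers of the products of COL4A1 and COL4A2, which are found in nearly all basement membranes, or as trimers with the products of COL4A3, COL4A4, COL4A5 and COL4A6 in selected ones. The RefSeq promoter table for GRCh38.p14 places 126 bases between the starts of COL4A1 and COL4A2, 418 between COL4A4 and COL4A3, and 379 between COL4A5 and the nearer of 2 starts of COL4A6. The stretch shared by COL4A1 and COL4A2 and the 250 bases upstream of COL4A5 and of COL4A6, which overlap by 121 bases, are shown because the first pair stayed uncalled and the second fell. Capitals mark matches to CCAAT or GGGCGG on either strand; TATAAA and CAGGTG were searched as well.
COL4A1-COL4A2 (chr13:110307158-110307283, GRCh38.p14, plus strand): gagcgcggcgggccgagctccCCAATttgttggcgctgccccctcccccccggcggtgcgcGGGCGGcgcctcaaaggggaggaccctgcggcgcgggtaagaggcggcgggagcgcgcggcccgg
COL4A5 upstream (chrX:108439588-108439837, GRCh38.p14, plus strand): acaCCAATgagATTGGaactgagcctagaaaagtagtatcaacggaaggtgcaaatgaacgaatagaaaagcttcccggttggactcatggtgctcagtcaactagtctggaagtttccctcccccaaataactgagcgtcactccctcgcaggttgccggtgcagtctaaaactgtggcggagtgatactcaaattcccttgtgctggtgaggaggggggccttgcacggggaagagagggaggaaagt
COL4A6 upstream (chrX:108439459-108439708, GRCh38.p14, minus strand): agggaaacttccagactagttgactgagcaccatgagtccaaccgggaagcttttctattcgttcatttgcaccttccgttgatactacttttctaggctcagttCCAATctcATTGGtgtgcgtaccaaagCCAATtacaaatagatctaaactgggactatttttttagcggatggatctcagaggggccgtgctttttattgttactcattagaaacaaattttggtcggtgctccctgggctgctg

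The COL4A1-COL4A2 stretch is 80.2% G and C and holds 1 CCAAT and 1 GGGCGG. Over all promoter windows in the table, 21.1% hold CCAAT and 34.6% GGGCGG in the 126 bases before the start. The COL4A5 window is 51.2% G and C with 2 CCAAT matches, and the COL4A6 window 44% with 3, of which 2 are the same bases read from the other strand. Neither holds GGGCGG, which 42.6% of all 250-base windows do, and 32.0% of those hold CCAAT. None of the 3 stretches holds TATAAA or CAGGTG. These are matches of letters and say nothing about binding.

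COL4A5 and COL4A6 fell by similar factors. COL4A6 (GRCh37 chromosome X, 107334898 to 107682727) held 9932, 10010 and 6528 normalized counts in control libraries 1 to 3 and 3884, 3396 and 3671 in flotillin libraries 1 to 3. The flotillin values lay close together and all under the lowest control value, library 3. Its level was 2.42-fold lower (authors' deposited table, log2 fold change -1.23, adjusted p = 2.94e-05; limma -1.25 ± 0.21 SE, adjusted p = 0.00902). COL4A5 (GRCh37 chromosome X, 107683074 to 107940775) held 16843, 18146 and 8070 in control and 7711, 7298 and 5838 in flotillin libraries. Here library 3 of the control lay just above the flotillin values. The difference was 2.07-fold (authors' deposited table, log2 fold change -0.99, adjusted p = 0.0178). COL4A5 did not pass in limma with all libraries (-0.97 ± 0.32 SE, adjusted p = 0.0637) or in the authors' deposited FPKM table (q = 0.0575), and did pass without library 3 of both lines (limma log2 fold change -1.22, adjusted p = 0.000649), with a term for library 3 (limma, adjusted p = 0.00212) and with no filter on low means (limma, adjusted p = 0.0497). The ratio of COL4A6 to COL4A5 normalized counts ran from 0.552 to 0.809 in control and from 0.465 to 0.629 in flotillin libraries, which overlap.

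COL4A1 and COL4A2 were not called, and 1 flotillin library set their means. COL4A1 held 3407, 2912 and 3199 normalized counts in control libraries 1 to 3 and 2161, 1319 and 4095 in flotillin libraries 1 to 3. COL4A2 held 5975, 4213 and 6063 in control and 3608, 2443 and 8916 in flotillin libraries. In both genes flotillin library 3 was above every control library and flotillin libraries 1 and 2 were below every one. Neither passed in the authors' deposited table, at -0.31 (log2, adjusted p = 0.596) for COL4A1 and -0.11 (log2, adjusted p = 0.882) for COL4A2. Without library 3 of both lines COL4A1 was 1.82-fold lower (limma log2 fold change -0.90, adjusted p = 0.0172) and COL4A2 1.68-fold lower (-0.76, adjusted p = 0.0352). With a term for library 3 in place of leaving it out, neither passed (limma, adjusted p = 0.209 for COL4A1 and 0.414 for COL4A2). Both lie on chromosome 13 in a locus that the FPKM table joins (GRCh37, 110801318 to 111165374). Their ratio moved less than their levels: COL4A2 stood at 1.45 to 1.90 times COL4A1 in control and at 1.67 to 2.18 times in flotillin libraries.

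COL4A3 and COL4A4, the pair on chromosome 2, were low. COL4A4 held 115, 155 and 161 normalized counts in control and 161, 185 and 183 in flotillin libraries 1 to 3 (authors' deposited table, adjusted p = 0.467). COL4A3 ran from 25.7 to 35.4 in control and from 17.5 to 48.0 in flotillin libraries (adjusted p = 0.743 in the authors' deposited table). Over all 6 genes the summed normalized counts of type IV collagen were 36304, 35472 and 24046 in control libraries 1 to 3 and 17574, 14688 and 22721 in flotillin libraries 1 to 3, sums that weigh long transcripts more.

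**Figure D3:**
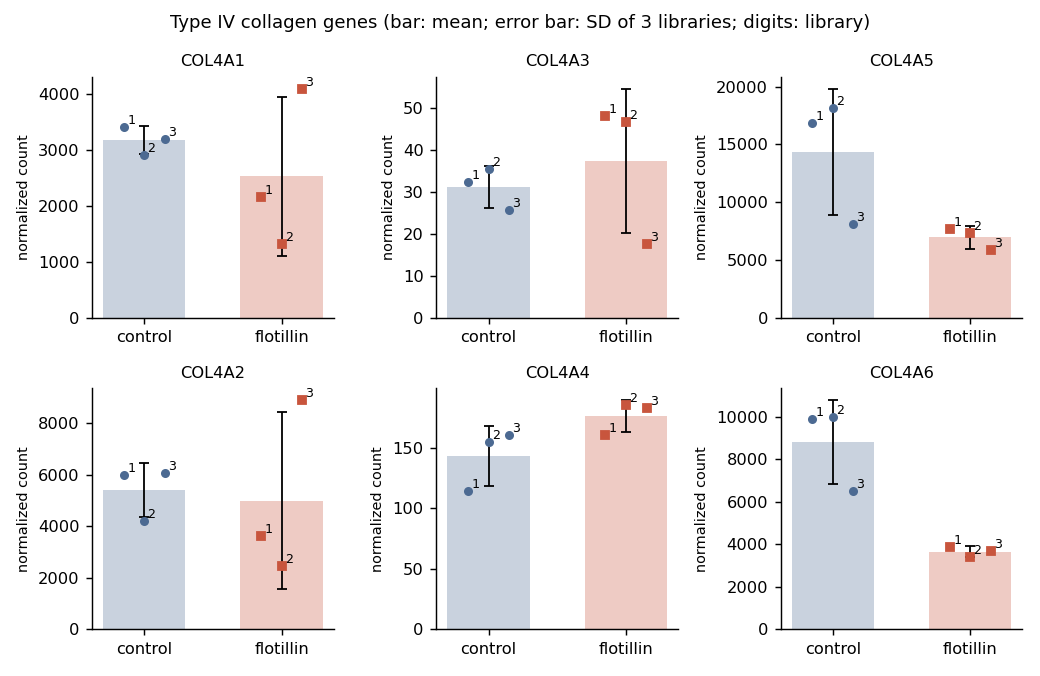
Normalized counts of the 6 type IV collagen genes, 1 pair per column; bars are group means, error bars the SD of 3 libraries, and the digits beside points the library number. COL4A5 and COL4A6 are lower in all 3 flotillin libraries, while in COL4A1 and COL4A2 flotillin library 3 lies above all control libraries and the other 2 below.

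Among the fibrillar genes, COL1A1, COL2A1 and COL27A1 fell and COL24A1 rose, 4 called of 8 tested, where 23.6% of all genes tested were called. COL1A1, the major chain of type I collagen (GRCh37 chromosome 17, 48260650 to 48278993), held 374, 164 and 265 normalized counts in control libraries 1 to 3. It held 106, 86.1 and 70.9 in flotillin libraries 1 to 3, all under the lowest control library. The level was 3.05-fold lower (authors' deposited table, log2 fold change -1.51, adjusted p = 0.000368; limma -1.54 ± 0.35 SE, adjusted p = 0.0202). COL2A1, the cartilage collagen (GRCh37 chromosome 12, 48366748 to 48398285), had 54, 24 and 21 reads in control libraries 1 to 3 and 0, 0 and 1 in flotillin libraries 1 to 3. That is a ratio of 94.1 of control to flotillin reads after scaling, with an exact 95% interval from 16.5 to 3755 that covers counting error only (authors' deposited table, adjusted p = 8.83e-08; limma, adjusted p = 0.00278). COL27A1, a fibrillar chain with a short interrupted helix, held 290, 425 and 154 in control and 145, 107 and 127 in flotillin libraries. Its control values spread widely, and the lowest stood just above the highest flotillin value. In the authors' deposited table its log2 fold change was -1.11 (adjusted p = 0.0186), while limma gave -1.08 ± 0.38 SE (adjusted p = 0.0733).

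COL24A1, a minor fibrillar collagen gene (GRCh37 chromosome 1, 86194916 to 86622626), held 19.0, 28.7 and 6.91 normalized counts in control and 139, 112 and 58.6 in flotillin libraries 1 to 3. It was 5.68-fold higher (authors' deposited table, log2 fold change 2.20, adjusted p = 8.37e-05; limma 2.55 ± 0.56 SE, adjusted p = 0.0187), and library 3 was lowest in both lines. The most abundant fibrillar gene in flotillin cells by FPKM, COL5A2, did not differ detectably: it held 495, 523 and 346 in control and 552, 499 and 367 in flotillin libraries (authors' deposited table, adjusted p = 0.915; limma log2 fold change 0.06 ± 0.25 SE). COL5A3 ran from 15.3 to 39.5 in control and from 8.0 to 15.4 in flotillin libraries (adjusted p = 0.128 in the authors' deposited table). COL11A2 ran from 14.8 to 116 in control and from 22.6 to 73.0 in flotillin libraries (adjusted p = 0.951 in the authors' deposited table).

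The FACIT class held 1 called gene of 5 tested, beside the same 23.6%. COL12A1, whose product decorates the surface of type I fibrils (GRCh37 chromosome 6, 75794042 to 75915767), held 1090, 2953 and 2256 normalized counts in control and 4994, 5533 and 7809 in flotillin libraries 1 to 3. It was 2.91-fold higher (authors' deposited table, log2 fold change 1.44, adjusted p = 0.00114; limma 1.63 ± 0.37 SE, adjusted p = 0.0212; FPKM table, q = 0.0277). Without library 3 of both lines the limma log2 fold change was 1.55 and the call was lost (adjusted p = 0.0669). COL16A1 held 1126, 1254 and 264 in control and 650, 519 and 561 in flotillin libraries. Control library 3 lay far under the other 2. COL16A1 was not called in the authors' deposited table (log2 fold change -0.55, adjusted p = 0.398) or in limma with all libraries (-0.33 ± 0.57 SE, adjusted p = 0.689). Limma without library 3 of both lines called it lower (-1.03, adjusted p = 0.00295), and limma with a term for library 3 did not (adjusted p = 0.565).

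Among the collagen genes the largest rise in normalized count and in FPKM was that of COL8A1, a short-chain network collagen known from vessel walls and from the membrane under the corneal endothelium. COL8A1 (GRCh37 chromosome 3, 99357319 to 99518070) held 2191, 4438 and 2230 normalized counts in control libraries 1 to 3 and 12287, 18369 and 10833 in flotillin libraries 1 to 3. Every flotillin library was above every control library, and the mean rose 4.68-fold (authors' deposited table, log2 fold change 2.09, adjusted p = 1.11e-07; limma 2.27 ± 0.33 SE, adjusted p = 0.00494). The authors' deposited FPKM table gives it a q of 0.0722. Its partner COL8A2 had at most 5 reads in a library.

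COL28A1, a gene with a type VI-like domain layout (GRCh37 chromosome 7, 7395834 to 7575484), held 119, 244 and 32.6 normalized counts in control libraries 1 to 3. In flotillin libraries 1 to 3 it held 1162, 1241 and 341. Library 3 was lowest in both lines, and the groups did not overlap. The mean rose 6.95-fold (authors' deposited table, log2 fold change 2.34, adjusted p = 0.000256; limma 2.99 ± 0.81 SE, adjusted p = 0.0403). COL18A1, whose product carries the endostatin fragment at its end (GRCh37 chromosome 21, 46825052 to 46964314), held 93.9, 44 and 42.5 in control and 297, 160 and 244 in flotillin libraries, a 3.89-fold rise. In the authors' deposited table of means its log2 fold change was 1.81 (adjusted p = 7.34e-05), and the authors' FPKM table gives a q of 0.153. COL13A1, a transmembrane collagen found at cell junctions (GRCh37 chromosome 10, 71561644 to 71724031), held 87.3, 50.7 and 63.2 in control and 2.0, 3.04 and 10.3 in flotillin libraries. It was 13.1-fold lower, and 27.4-fold lower without library 3 of both lines, with every flotillin library under every control library (authors' deposited table, log2 fold change -3.17, adjusted p = 2.19e-08; limma -3.69 ± 0.55 SE, adjusted p = 0.00545).

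The type VI genes encode the chains of beaded microfibrils, and none of COL6A1, COL6A2 and COL6A3 was called in the authors' deposited table of means. Their limma log2 fold changes all lay above 0, at 0.82 ± 0.44 SE for COL6A1, 1.62 ± 0.62 SE for COL6A2 and 3.17 ± 1.35 SE for COL6A3, and the differences between them were not tested. COL6A3 (GRCh37 chromosome 2, 238232646 to 238323018) held 51.2, 44 and 157 normalized counts in control libraries 1 to 3 and 432, 115 and 5388 in flotillin libraries 1 to 3. The mean was 23.5-fold higher, but flotillin library 3 supplied most of it, and flotillin library 2 lay under control library 3. The authors' deposited table of means gives COL6A3 no p-value, the authors' FPKM table a q of 0.000804, and limma an adjusted p of 0.131. Without library 3 of both lines the ratio of means was 5.74 (limma log2 fold change 2.21, adjusted p = 0.0301), and with a term for library 3 limma gave COL6A3 an adjusted p of 0.0488 and COL6A2 one of 0.0359. COL6A1 held 704, 321 and 186 in control and 709, 546 and 606 in flotillin libraries (adjusted p = 0.340 in the authors' deposited table). COL6A2 was low, at 2.96 to 19.0 in control and 17.2 to 32.0 in flotillin libraries (adjusted p = 0.114 in the authors' deposited table).

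COL7A1, the anchoring fibril collagen that ties the basement membrane to the tissue below, varied more between control libraries than between lines. It held 6852, 2090 and 1012 normalized counts in control and 4420, 2842 and 3697 in flotillin libraries 1 to 3. All 3 flotillin values lay inside the control range, and no difference was called (authors' deposited table, adjusted p = 0.891). The limma log2 fold change of 0.56 had an SE of 0.65, so a difference of that size was not detectable with this spread.

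The other fits differed in which collagen genes they called. Limma called 9 of the 23 fitted collagen genes, all of them among the 11 deposited calls, where 23.2% of all genes fitted were called. The authors' deposited FPKM table called 8 of 22 tested, 4 higher and 4 lower, against 16.9% of all genes (6.93% higher, 10% lower), and 7 of these are deposited calls in the table of means; the other is COL6A3. Without library 3 of both lines limma called 14 of 23, against 44.1% of all genes, among them 10 of the 11 deposited calls, with COL4A1, COL4A2, COL6A3 and COL16A1 added. With a term for library 3 limma called all 11 and COL5A3, COL6A2 and COL6A3, 14 of 23, against 45.9% of all genes; this alternative too was chosen after seeing the data.

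**Figure D4:**
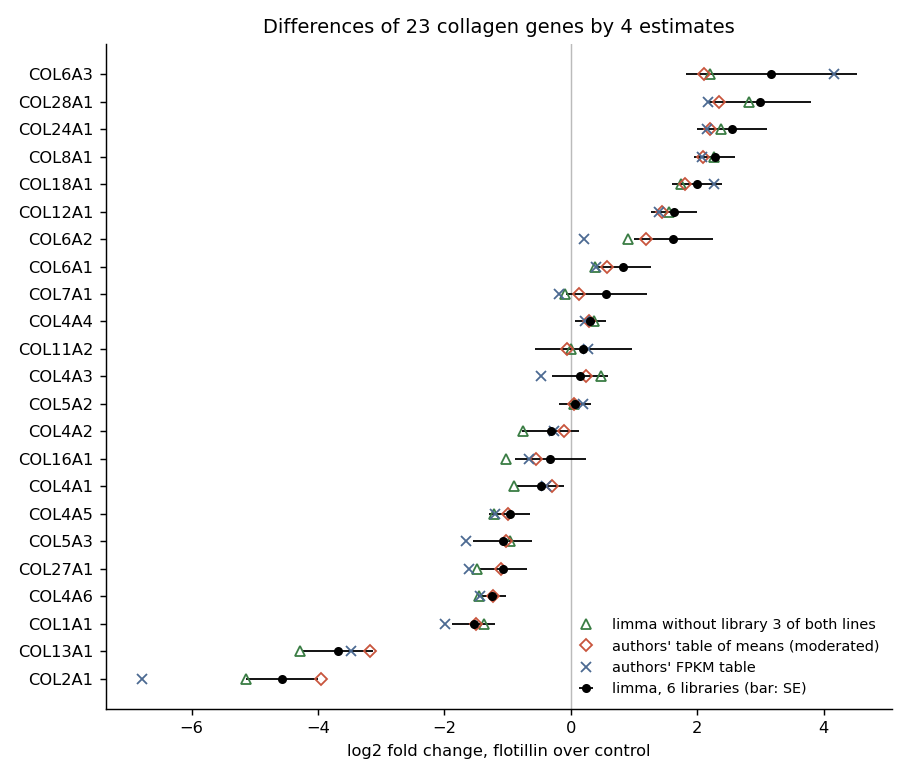
Log2 fold change of flotillin over control for 23 collagen genes by 4 estimates: limma on the 6 libraries (points, bars are SE), limma without library 3 of both lines (triangles), the authors' moderated value (diamonds) and the authors' FPKM table (crosses). The estimates lie close for COL8A1 and COL4A6 and far apart for COL6A3 and COL2A1; COL2A1 has 1 flotillin read in all.

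Genes that make, process, bind or degrade collagen were read from a list of 65 genes, all found in the table. Of 57 tested, 12 were higher and 15 lower in the authors' deposited table (47.4%, beside 23.6% of all genes tested), with a median log2 fold change of -0.43. Of these 27 calls, 19 also passed in the authors' FPKM table and 23 in limma with all libraries. P4HA1, P4HA2, CRTAP, MIA3, KLHL12, PCOLCE and ITGA1 did not pass in the FPKM table (q from 0.0811 to 0.716). MMP9 was tested in neither, and DCN was not fitted in limma. PCOLCE and MMP14 did not pass in limma (adjusted p = 0.0661 and 0.0507). Among the enzymes that modify the chains, P4HA1 and P4HA2, catalytic subunits of collagen prolyl 4-hydroxylase, fell in the authors' deposited table by 1.07 (adjusted p = 0.00119) and 0.95 (adjusted p = 0.00841) on the log2 scale. The related subunit gene P4HA3 went the other way, from 6.64, 5.74 and 6.91 normalized counts in control to 61.0, 48.6 and 285 in flotillin libraries 1 to 3 (authors' deposited table, log2 fold change 3.51, adjusted p = 3.5e-08). LEPREL1, a prolyl 3-hydroxylase known to act on basement membrane collagen, fell, with every flotillin library under every control library: it held 2493, 2620 and 2102 in control and 146, 226 and 190 in flotillin libraries (authors' deposited table, log2 fold change -3.56, adjusted p = 3.57e-40). PLOD3, a lysyl hydroxylase with glycosyltransferase activity, fell, and CRTAP, a partner of prolyl 3-hydroxylase, rose, at -1.04 and 0.65 (log2, authors' deposited table). P4HB, the shared subunit of prolyl 4-hydroxylase, did not pass (authors' deposited table, adjusted p = 0.621).

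Of the chaperone and export genes, MIA3 and CTAGE5, which help load bulky procollagen into COPII vesicles, fell, and SEC23A, a COPII coat gene, and KLHL12, a ubiquitin ligase adaptor for large COPII carriers, rose. The values in the authors' deposited table were, on the log2 scale, -0.78 for MIA3, -0.92 for CTAGE5, 1.00 for SEC23A and 0.67 for KLHL12. SERPINH1, the collagen chaperone HSP47, held 4465, 4709 and 7326 normalized counts in control and 2405, 1960 and 4454 in flotillin libraries; it did not pass in the authors' deposited table of means (adjusted p = 0.0684), did in their FPKM table (q = 0.000804) and did in limma without library 3 of both lines (adjusted p = 0.00145). For propeptide processing, TLL1, a tolloid protease gene, and PCOLCE, a procollagen C-proteinase enhancer, fell (authors' deposited table, log2 fold changes -1.95 and -1.12), while PCOLCE2 rose (1.26). None of 5 tested cross-linking genes passed in the authors' deposited table of means, where 3 had an unadjusted p under 0.05, and none passed in limma with all libraries. Of all genes tested in the authors' deposited table of means, 23.6% were called. The authors' deposited FPKM table calls TGM2, a transglutaminase gene, higher (q = 0.0113). Limma without library 3 of both lines called LOX (adjusted p = 0.00355) and LOXL2 (adjusted p = 0.016) lower; with a term for library 3 it called LOXL2 and LOXL3 lower and TGM2 higher. LOX, the lysyl oxidase gene, held 8480, 5992 and 2748 in control and 3663, 3376 and 3597 in flotillin libraries (authors' deposited table, adjusted p = 0.2).

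Among 10 collagen receptors tested, 4 fell and 1 rose, where 12% of all genes tested were called lower and 11.6% higher. ITGA2, the chain of an epithelial collagen-binding integrin, held 7852, 10437 and 6376 normalized counts in control and 1108, 824 and 1569 in flotillin libraries 1 to 3 (authors' deposited table, log2 fold change -2.68, adjusted p = 3.9e-15). ITGA1, whose integrin prefers type IV collagen, fell with a log2 fold change of -1.69 (adjusted p = 5.46e-05), DDR1, an epithelial collagen receptor kinase, with -2.07 (adjusted p = 1.06e-12), and GPR56, an adhesion receptor that binds type III collagen, with -5.41 (adjusted p = 2.34e-47), all in the authors' deposited table. DDR2 was low, with authors' means of 37.4 and 17.3 (adjusted p = 0.144 in the deposited table). MRC2, a receptor that takes up collagen for breakdown, rose with a log2 fold change of 1.77 (adjusted p = 6.59e-06 in the authors' deposited table).

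Of 4 tested fibril-binding proteoglycan genes, DCN and LUM rose (authors' deposited table, 2.79 and 2.04 on the log2 scale). Of all genes tested there, 11.6% were called higher and 12% lower. BGN and PRELP were not called (authors' deposited table, -0.64 with adjusted p = 0.514 and -0.45 with adjusted p = 0.590). FMOD, OGN and ASPN were not tested and, like BGN, had authors' means under 10 in both lines. Among degrading enzymes, MMP2, a gelatinase that cuts type IV collagen, rose with a log2 fold change of 3.14 (adjusted p = 7.51e-12) and PEPD, which splits proline dipeptides left from collagen, with 1.70 (adjusted p = 4.6e-07), both in the authors' deposited table. MMP14, a membrane-bound collagenase, fell with -0.80 (adjusted p = 0.0241 in the authors' deposited table). MMP9, another gelatinase, had 18 control reads, 4, 2 and 12 by library, and 0 flotillin reads (authors' deposited table, adjusted p = 0.0266). Against a floor of 3 reads over the flotillin group it was at least 5.70-fold lower. That value takes the control reads as exact and leaves out the spread between libraries. The interstitial collagenase gene MMP1 had authors' means of 0.949 and 1.02. LARP6, an RNA-binding protein for type I collagen messages, rose (authors' deposited table, log2 fold change 1.48), as did YBX1, a nucleic acid binding protein, from 6017 to 14406 by the authors' means, and SP1, a transcription factor for many collagen promoters, fell (log2 fold change -0.72).

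**Figure D5:**
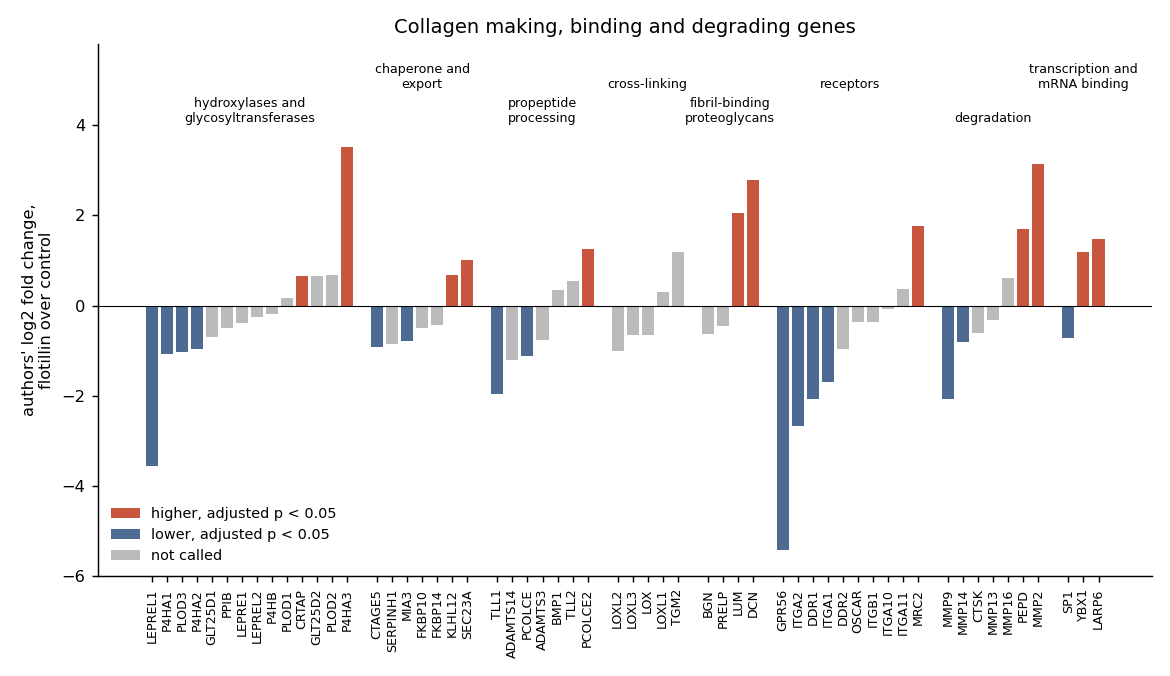
Authors' log2 fold changes of flotillin over control for the 57 tested genes that make, process, bind or degrade collagen, grouped by role. Red bars are called higher and blue bars lower at an adjusted p under 0.05, grey bars are not called; among receptors 4 are lower and MRC2 alone is higher.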

How the data were processed

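RNA of 6 libraries, 3 per line, was analysed from 2 tables of the same comparison. The submitters' processing notes name bcl2fastq, build GRCh37, DESeq2 1.18.1, HTSeq 0.9.1 and HISAT2 2.1.0; annotation release and Tuxedo versions were not given in the sources used here. One table holds signal, which its values show to be the authors' group means of read counts divided by size factors, with their log2 fold changes, p-values and adjusted p-values, per the file headers. The other holds, per the file headers, the authors' FPKM of each group, a test score, q-values and log2 fold changes. Gene positions are its loci, counted from 1.

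A mean of 3 libraries is a sum of 3 whole counts, each divided by 3 times a size factor. The steps between low means, deposited with 15 digits, give the factors, from which the 3 whole counts behind each mean were solved. All means up to 20000 had a single solution; 172 genes above it were left out, which hold 26.8% of control and 25.2% of flotillin normalized counts. Means altered as a check had a solution in 0% of 1000 per group below 3000, and in 2.4% (control) and 3.3% (flotillin) of 1000 between 3000 and 15000, the range of the highest collagen genes. On simulated reads 100% of 1998 and 1996 genes came back exactly, and size factors recomputed from the reads differed by at most 0.066%.

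Calls are the authors' adjusted p under 0.05. As a second test, log-scale values were fitted in R 4.3.3 by limma 3.58.1 (trend, robust, Benjamini-Hochberg), using log2(normalized count + 1) for 15839 recovered genes with a mean of at least 10. In data simulated for this comparison over these 15839 genes it called 43% of 100 genes changed 2-fold and 99% of 100 changed 4-fold, with 5.96% false calls. Every simulated gene had the same spread, the median over genes (dispersion 0.0457), and library 3 was given no shift of its own. These rates therefore need not hold for genes with a wider spread or for the shift of library 3 seen here. No count test was run on the recovered reads. Other tools were numba 0.67.0, scipy 1.17.1, numpy 2.4.6, matplotlib 3.10.9 and pandas 2.3.3 under Python 3.11.15.

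Values are named for each called gene with a group mean of at least 100, the 5 highest by FPKM in each line, their partner chains, every called pathway gene and 10 pathway genes taken whatever their call; COL2A1, COL13A1, COL6A3 and the other uncalled genes with values were added after their values were seen. Members and lists were chosen with earlier results of these data known. RefSeq promoter windows matched 30 of 42 symbols.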

Additional observations from a re-analysis of the deposited data

How the results depend on the processing

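No paired analysis was possible because the columns carry no replicate numbers. The fits without library 3 and with a term for it join the libraries of lowest size factor in both lines. The labels do not tie these libraries to each other. No called collagen gene changed direction under any alternative run. With the limma filter at a mean of at least 100, 2 collagen genes were called lower in place of 6, since COL2A1 and COL13A1 are then not fitted and COL4A5 and COL27A1 do not pass in limma. For that filter the share of all genes called was not computed, so the count cannot be set against it. Leaving out 1 library at a time, limma called 1 to 5 collagen genes higher and 3 to 7 lower. The fewest rises, 1 and 2, came without flotillin library 1 and flotillin library 2. The share of all genes called was not computed for these fits, so whether their counts are particular to the listed genes cannot be told. In the pathway list these fits called 5 to 12 genes higher and 5 to 17 lower (7 and 8 without control libraries 1 and 2), and limma without library 3 of both lines called 23 lower, where limma with all libraries called 12 and 15 were called in the authors' deposited table; over all genes fitted the share called lower was 20.5% without library 3 and 11.1% with all libraries. COL2A1, COL4A6, COL8A1 and COL13A1 passed in every one of these 6 fits. COL4A5 and COL27A1 passed only in the fit without control library 3. The call was lost for COL12A1 without each flotillin library, for COL1A1 without control library 1 and without each flotillin library, for COL24A1 without flotillin libraries 1 or 2, for COL28A1 without these or control library 1, and for COL18A1 without control library 2 or flotillin library 1. COL28A1 also missed the threshold with no filter on low means (adjusted p = 0.115). Scaling to total reads moved the median log2 fold change of genes with a mean of at least 100 by -0.04 and left 5 rises and 4 falls among collagens in limma. With this scaling, too, the share of all genes called was not computed. Leaving 1 library out leaves a group with 2, and with 3 per group genes changed 2-fold were often missed in the simulation.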
